A study of Mus musculus with 14 samples.

Results

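The genes described here are 10 members of the lipid carrier and sterol export machinery of the brain, taken as the entries of the deposited count table whose symbol is Apoe, Apoc1, Apod, Clu, Abca1, Abcg1, Ch25h, Plin2, Soat1 or Nr1h3. Each symbol matched 1 entry, so they are 10 of the 55359 entries with an Ensembl gene, and all 10 passed the filter on low counts that left 16918 genes for testing. The 14 samples are bilateral mouse cortex, sequenced as RNA: 5 taken at 7 d and 5 at 2 d after cerebral venous sinus thrombosis (CVST), a clot in the venous channels that drain the brain, and 4 sham samples. Per the labels the mice were kept under specific-pathogen-free conditions, and no genotype, treatment or other agent is named for any group. The labels do not give the sex and age of the mice or when the sham samples were taken. Nor do they state that the numbered samples are separate animals, so p-values measure the spread between these samples. The question put by the study is how the cortical transcriptome differs from sham at each time after CVST.

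In the brain, cholesterol does not cross the blood-brain barrier in lipoproteins, and cells exchange it inside the tissue on particles built around apolipoprotein E. Abca1 and Abcg1, ATP-driven pumps of the plasma membrane, load cholesterol and phospholipid onto these particles. Oxysterols such as the 25-hydroxycholesterol made by Ch25h bind the liver X receptors, which switch on Abca1, Abcg1 and Apoe, and cholesterol that is not exported is esterified by Soat1 and kept in lipid droplets coated by Plin2.

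Promoter sequences are shown for the members with the largest fold changes that passed the test, Abca1, Ch25h and Plin2. RefSeq windows of build GRCm38.p6, 250 bases before to 50 after an annotated start, were found for 7 of the 10 members, 10 windows in all, and the 250 bases before the start are printed, 5′ to 3′. All 3 genes lie on the minus strand, at chr4:53159896-53160145 for Abca1, chr19:34475149-34475398 for Ch25h and chr4:86670060-86670309 for Plin2, and G and C make up 61.6%, 50.4% and 61.6% of the printed bases in the same order.
Abca1: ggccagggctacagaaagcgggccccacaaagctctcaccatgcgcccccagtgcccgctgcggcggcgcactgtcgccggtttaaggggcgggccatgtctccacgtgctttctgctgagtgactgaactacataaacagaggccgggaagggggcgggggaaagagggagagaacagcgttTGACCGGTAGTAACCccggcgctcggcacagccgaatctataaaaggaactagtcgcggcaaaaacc
Ch25h: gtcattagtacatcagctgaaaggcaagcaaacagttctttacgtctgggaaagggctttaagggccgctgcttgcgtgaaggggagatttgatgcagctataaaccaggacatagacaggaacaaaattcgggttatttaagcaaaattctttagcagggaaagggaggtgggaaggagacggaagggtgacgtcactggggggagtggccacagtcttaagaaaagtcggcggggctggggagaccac
Plin2: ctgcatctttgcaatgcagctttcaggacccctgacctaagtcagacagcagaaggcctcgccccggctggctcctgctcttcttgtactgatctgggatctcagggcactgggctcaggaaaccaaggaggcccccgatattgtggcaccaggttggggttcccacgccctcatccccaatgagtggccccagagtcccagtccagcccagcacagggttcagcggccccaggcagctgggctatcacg
The capitals in the Abca1 promoter mark the match, on the opposite strand and 67 to 53 bases before the start, to a direct repeat of the kind that liver X receptors bind, searched as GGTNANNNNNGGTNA on both strands. This was the match found among the 10 member windows. No window of a member held TCACNCCAC (a sterol regulatory element), TGANTCA (an AP-1 site) or GAAANNGAAA (an interferon-stimulated response element), so no matches overlapped. Of all 32851 promoter windows in the table, 0.718% held the direct repeat, 1.24% the sterol regulatory element, 7.81% the AP-1 letters and 3.44% the interferon letters. A match describes letters in this window and was not tested as a binding site.

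Total counts per sample were 14.7 to 20.8 M (M for mega). Neuronal markers summed to 6649 to 10618 CPM (counts per M counts, with each library size corrected by TMM for composition), with no gene of that list at 0 in any sample. The lowest sums were 6649 CPM in 7 d sample 5 and 7484 CPM in 7 d sample 4, against 8022 CPM or more in the others. Markers of the choroid plexus, which lies outside the cortex, summed to 9.97 to 129 CPM at 7 d, 5.48 to 498 CPM at 2 d and 14.1 to 884 CPM in sham. On the first principal component, with 33.1% of the variance, sham samples 2, 3 and 4 lay at -48.0, -48.2 and -47.7 and sham sample 1 at -27.3. Just outside the sham range, next to sham sample 1, lay 7 d sample 2 (-26.9) and 2 d sample 5 (-26.7), while other CVST samples reached 49.1. Both are called the CVST samples beside sham below, though they were far from sham samples 2, 3 and 4. Calls of members that turn on these samples are given with and without them. Leaving out a CVST sample that resembles sham can itself widen a difference from sham, so such a fit is no separate support.

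At 7 d against sham, 3 of the 10 genes were called higher (Abca1, Clu and Plin2) and none lower, where a call is an adjusted p under 0.05 in edgeR's quasi-likelihood test over all genes. Over all genes tested, 3.61% were called higher and 0.833% lower in that comparison. Of the other 7, 6 had an unadjusted p under 0.05, so 9 of 10 had one in all, beside 19.6% of all genes. At 2 d against sham, 2 were called higher (Apod and Ch25h) and none lower, against 2.98% and 0.969% of all genes, and 3 had an unadjusted p under 0.05, beside 21.7% of all genes. At 7 d against 2 d, 2 were called higher (Apoe and Abca1) and none lower, against 1.54% and 1.25% of all genes, and 6 had an unadjusted p under 0.05, beside 20.9% of all genes. The median log2 fold change of the 10 was 1.07 at 7 d against sham, 0.21 at 2 d against sham and 0.35 at 7 d against 2 d, beside -0.01, -0.01 and 0.01 over all genes tested. Both comparisons with sham use the same 4 sham samples, so their values are not independent. The members and the gene lists were chosen with earlier results of these data known. Their shares beside those of all genes, here and below, are therefore descriptions and do not test whether these genes stand out.

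**Figure D1:**
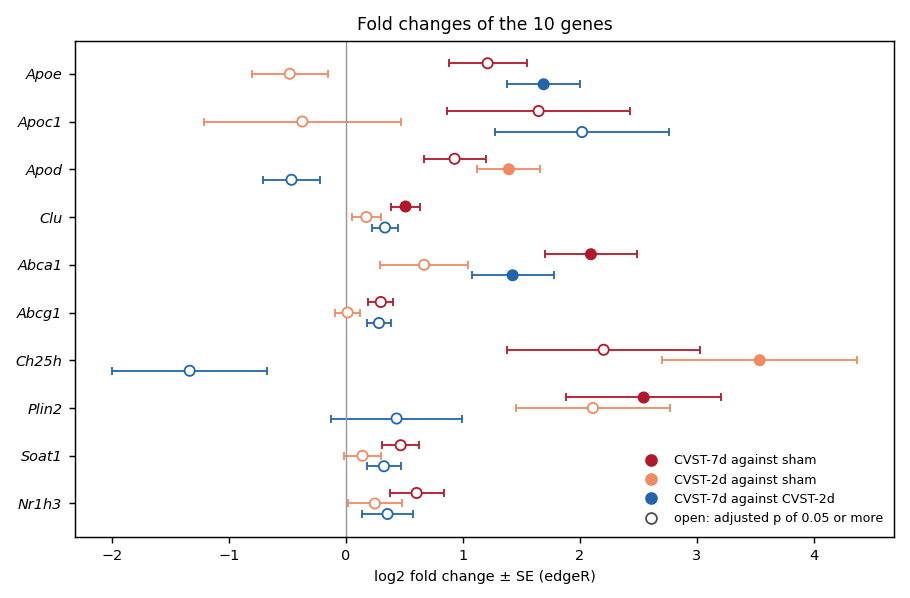
Log2 fold change with its standard error (horizontal axis) of each gene (vertical axis) at 7 d against sham (dark red), 2 d against sham (orange) and 7 d against 2 d (blue); filled points have an adjusted p under 0.05. Filled points are Abca1, Clu and Plin2 at 7 d against sham, Apod and Ch25h at 2 d against sham, and Apoe and Abca1 at 7 d against 2 d.

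Apoe (ENSMUSG00000002985), the main apolipoprotein of brain lipoproteins, was the most abundant member. Its level was 1937, 920, 1734, 3682 and 3475 CPM in 7 d samples 1 to 5, against 837, 758, 644, 428 and 972 CPM in 2 d samples 1 to 5 and 950, 920, 1034 and 1151 CPM in sham samples 1 to 4. At 7 d, 4 of 5 samples were above every 2 d and every sham sample, and 7 d sample 2 was level with the lowest sham sample. At 2 d, 4 of 5 samples were below every sham sample. Apoe was higher at 7 d than at 2 d, by a log2 fold change of 1.69 ± 0.31 (SE, n = 5 and 5, adjusted p = 0.0156). This call held with each of the 10 CVST samples left out in turn (adjusted p 0.00646 to 0.0416) and missed the threshold when the 7 d and 2 d samples were fitted alone (0.0544).

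Against sham, Apoe did not pass the test at either time. The log2 fold change was 1.21 ± 0.33 at 7 d (adjusted p = 0.0543) and -0.48 ± 0.32 at 2 d (adjusted p = 0.416), and the difference between these effects is the 7 d against 2 d value above. Without 7 d sample 2, Apoe was called higher at 7 d than in sham (log2 fold change 1.43, adjusted p = 0.00594). That was the 1 call among 9 fits with 1 sample left out, where adjusted p reached 0.14 and the log2 fold change fell to 0.99. As a share of all gene counts, Apoe held 0.189%, 0.0915%, 0.175%, 0.382% and 0.360% in 7 d samples 1 to 5, 0.0436% to 0.0966% at 2 d and 0.0885% to 0.114% in sham. It ranked 23, 86, 26, 12 and 12 by count in the 7 d libraries, between 71 and 273 at 2 d and between 58 and 94 in sham.

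Apod (ENSMUSG00000022548), a lipocalin that carries small lipids and is unrelated in fold to apolipoprotein E, had a different course. It stood at 197, 150, 227, 422 and 212 CPM at 7 d, 310, 401, 322, 385 and 249 CPM at 2 d and 178, 108, 93.1 and 128 CPM in sham. Every 2 d sample was above every sham sample, and at 7 d all but sample 2 were. Apod rose at 2 d (log2 fold change 1.39 ± 0.27, SE, adjusted p = 0.0158), and this call ended without sham sample 2, 3 or 4 (adjusted p 0.067, 0.0681 and 0.0571). Its value at 7 d was 0.93 ± 0.27 (adjusted p = 0.0631), which passed without 7 d sample 2 (1.07, adjusted p = 0.0231). That was the 1 call among 9 fits with 1 sample left out, where adjusted p reached 0.192 and the log2 fold change fell to 0.63. At 7 d against 2 d the value was -0.46 ± 0.25 (adjusted p = 0.298), and -0.76 without 7 d sample 4 (adjusted p = 0.0806).

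Clu (ENSMUSG00000022037), or clusterin, an extracellular chaperone that also travels on brain lipoproteins, had a small and even rise. Levels were 934, 855, 1052, 1211 and 826 CPM at 7 d, 919, 708, 703, 715 and 823 CPM at 2 d and 607, 701, 676 and 755 CPM in sham. The 7 d samples were all above the sham samples, whereas the 2 d samples overlapped with both groups. Clu rose at 7 d by 0.51 ± 0.12 on the log2 scale (SE, adjusted p = 0.0309), with values of 0.18 ± 0.12 at 2 d (adjusted p = 0.428) and 0.33 ± 0.11 at 7 d against 2 d (adjusted p = 0.118). The 7 d call ended without any 1 of the 4 sham samples (adjusted p 0.0659 to 0.0993) and without 7 d sample 3 (0.0572) or 4 (0.0727), while the fold change stayed within 0.42 to 0.57 over all samples left out.

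Apoc1 (ENSMUSG00000040564), a small apolipoprotein encoded beside Apoe, was the carrier of lowest level, with 2 to 69 counts per sample. It had 0.558, 0.127, 1.03, 3.85 and 1.36 CPM at 7 d, 0.329, 0.422, 0.131, 0.165 and 0.637 CPM at 2 d and 0.118, 0.363, 0.200 and 1.08 CPM in sham. The groups overlapped in all 3 comparisons, with the highest values in 7 d samples 4 and 5. Its log2 fold changes were 1.65 ± 0.78 at 7 d (adjusted p = 0.261), -0.37 ± 0.84 at 2 d (adjusted p = 0.837), which was 0.57 without sham sample 4, and 2.02 ± 0.74 at 7 d against 2 d (adjusted p = 0.140). Without 7 d sample 4 the values were 0.81 at 7 d against sham and 1.19 against 2 d, and without sham sample 4 the 7 d value against sham was 2.59. At 2 d against sham the value ran from -0.70 to 0.57 with 1 sample left out.

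**Figure D2:**
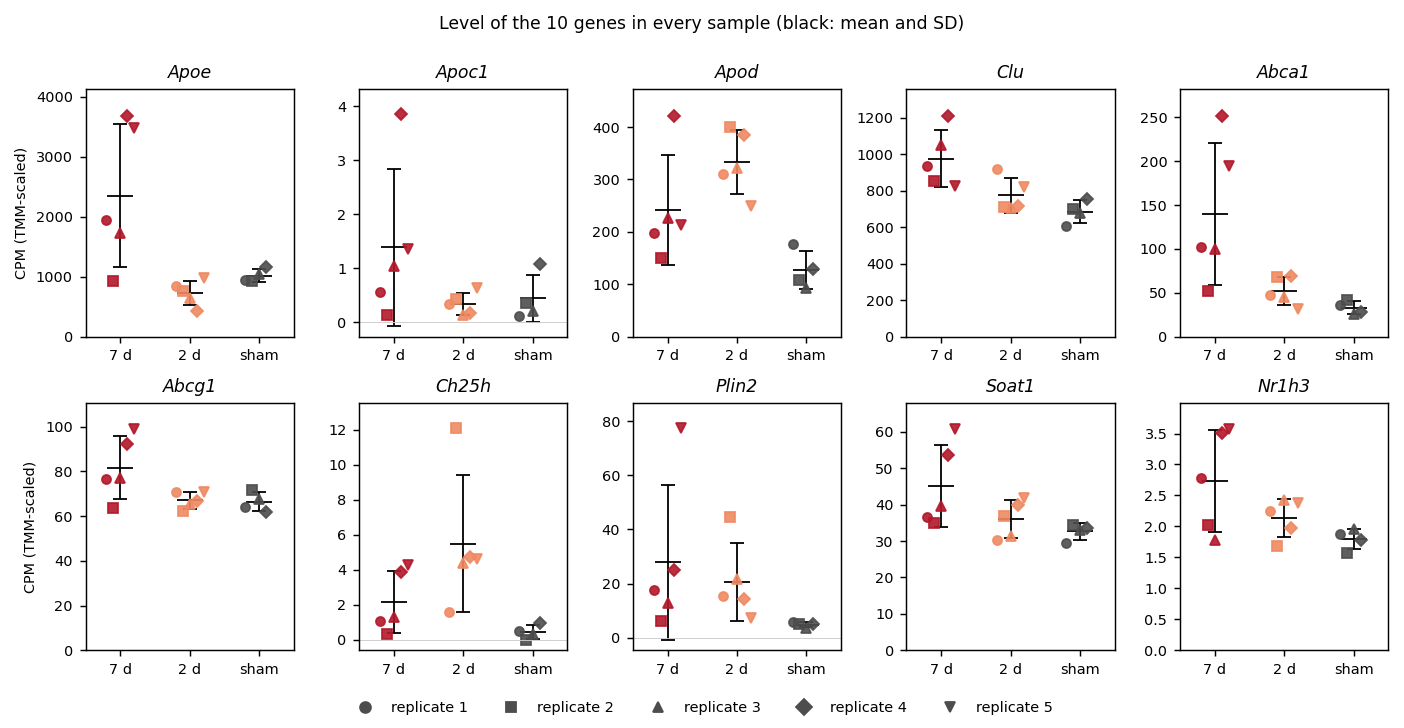
Level of each of the 10 genes in CPM (vertical axis, scaled to library size with TMM factors) in the samples of 7 d, 2 d and sham (horizontal axis); points are samples, their shape the replicate number, and black marks the group mean and SD. Abca1, Clu, Plin2 and Soat1 are above every sham sample in all 7 d samples, and Apod, Ch25h and Plin2 in all 2 d samples.

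Abca1 (ENSMUSG00000015243), the pump that lipidates newly secreted apolipoprotein E, had the lowest adjusted p of the members at 7 d against sham. It stood at 102, 51.8, 99.9, 252 and 195 CPM in the 7 d samples, 47.9, 67.8, 44.6, 68.9 and 31.0 CPM in the 2 d samples and 35.8, 42.0, 25.4 and 28.1 CPM in the sham samples. All 7 d samples were above all sham samples and 4 of 5 were above all 2 d samples, while 2 d sample 5 lay within the sham range. Abca1 rose at 7 d against sham by 2.10 ± 0.39 on the log2 scale (SE, adjusted p = 0.0117), a fold of 4.27. The call ended without sham sample 3 (adjusted p = 0.0579) or 4 (0.0525). Against sham at 2 d the value was 0.67 ± 0.38 (adjusted p = 0.320).

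Abca1 was also higher at 7 d than at 2 d, by 1.43 ± 0.35 (SE, adjusted p = 0.0442). That call was close to the threshold and ended without 2 d sample 1, 2, 3 or 4 (adjusted p 0.122, 0.052, 0.0902 and 0.0678) and without 7 d sample 1, 3, 4 or 5 (0.0615, 0.0575, 0.118 and 0.0754). It held without 2 d sample 5 (0.047) and without 7 d sample 2 (0.0186), the samples that lay beside sham.

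Abcg1 (ENSMUSG00000024030), a half-transporter that moves cholesterol to particles already partly lipidated, varied much less. Its levels were 76.5, 63.4, 76.9, 92.4 and 98.7 CPM at 7 d, 62.1 to 70.7 CPM at 2 d and 62.0 to 71.7 CPM in sham. In the 7 d group, samples 1, 3, 4 and 5 were above every 2 d and sham sample, and sample 2 lay within both ranges. The log2 fold change was 0.30 ± 0.11 at 7 d (SE, adjusted p = 0.135), 0.02 ± 0.11 at 2 d (adjusted p = 0.951) and 0.28 ± 0.10 at 7 d against 2 d (adjusted p = 0.130). Without 7 d sample 2 both contrasts with 7 d passed, at 0.39 against sham (adjusted p = 0.0255) and 0.36 against 2 d (adjusted p = 0.0478). Each was the 1 call with 1 sample left out, where adjusted p reached 0.304 against sham (9 fits) and 0.278 against 2 d (10 fits). Whether Abca1 and Abcg1 differed in their change was not tested.

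Ch25h (ENSMUSG00000050370), cholesterol 25-hydroxylase, the source of an oxysterol that myeloid cells release, had its highest mean at 2 d. It had 1.05, 0.317, 1.32, 3.85 and 4.25 CPM at 7 d, against 1.59, 12.1, 4.39, 4.73 and 4.63 CPM at 2 d and 0.529, 0, 0.350 and 0.970 CPM in sham, where the counts were 9, 0, 7 and 18. Every 2 d sample was above every sham sample, including 2 d sample 5, and 2 d sample 2 was far above the rest. Ch25h rose at 2 d by 3.54 ± 0.83 on the log2 scale (SE, adjusted p = 0.0338). The call ended without any 1 of the 4 sham samples (adjusted p 0.0658 to 0.109) and without 2 d sample 2 (log2 fold change 3.02, 0.0763), 3 (0.0544) or 4 (0.0544).

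At 7 d the Ch25h value was 2.20 ± 0.82 against sham (SE, adjusted p = 0.150) and -1.33 ± 0.66 against 2 d (adjusted p = 0.267), which was -0.81 without 2 d sample 2. At 7 d, sample 2 lay within the sham range and the other 4 samples were above it. In an annotation of another build (GENCODE M21) Ch25h overlaps Gm26902 on the opposite strand, as Soat1 does Gm37648 and Nr1h3 does Gm23390, while Abcg1 and Nr1h3 hold Gm25447 and Gm13783 on their own strand. The strand setting of the counting is not given in the sources used here, so reads of these pairs cannot be told apart.

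Plin2 (ENSMUSG00000028494), or perilipin 2, a coat protein of lipid droplets, was above every sham sample in all 10 CVST samples. It stood at 17.4, 6.21, 12.9, 24.8 and 77.6 CPM at 7 d, 15.3, 44.5, 21.7, 14.1 and 7.35 CPM at 2 d and 5.59, 4.91, 3.60 and 5.01 CPM in sham. The lowest CVST values were in 7 d sample 2 and 2 d sample 5, and the highest, in 7 d sample 5, was far from the others. Plin2 rose at 7 d by 2.55 ± 0.66 on the log2 scale (SE, adjusted p = 0.0443), a fold of 5.84. The call ended without any 1 of the sham samples (adjusted p 0.0831 to 0.138) and without 7 d sample 1 (0.0505), 4 (0.0833) or 5 (0.0952), and without sample 5 the log2 fold change was 1.69.

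At 2 d Plin2 had a log2 fold change of 2.11 ± 0.66 against sham (SE, adjusted p = 0.0846), which did not pass with all samples and did without 2 d sample 5 (2.33, adjusted p = 0.0341). That was the 1 call among 9 fits with 1 sample left out, where adjusted p reached 0.203 and the log2 fold change fell to 1.61. Between the times the value was 0.43 ± 0.56 (adjusted p = 0.701), with -0.42 without 7 d sample 5 and 0.94 without 2 d sample 2 at the ends of its range with 1 sample left out. The CVST groups thus overlapped widely for this gene.

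Soat1 (ENSMUSG00000026600), the acyltransferase of the endoplasmic reticulum that makes cholesteryl esters, had 36.7, 35.0, 39.7, 53.5 and 60.6 CPM at 7 d, 30.2, 36.8, 31.3, 39.9 and 41.7 CPM at 2 d and 29.4, 34.5, 33.0 and 33.6 CPM in sham. The 7 d samples were all above the sham samples, by a narrow margin in sample 2. Soat1 did not pass the test, with 0.47 ± 0.16 at 7 d (SE, adjusted p = 0.111), 0.14 ± 0.16 at 2 d (adjusted p = 0.637) and 0.33 ± 0.15 at 7 d against 2 d (adjusted p = 0.222). Its 7 d value against sham passed without both CVST samples beside sham (0.56, adjusted p = 0.0405) and did not without 7 d sample 2 alone (0.56, adjusted p = 0.0519).

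Nr1h3 (ENSMUSG00000002108), liver X receptor alpha, the oxysterol sensor of the set, was low throughout, at 26 to 68 counts per sample. It had 2.79, 2.03, 1.78, 3.52 and 3.57 CPM at 7 d, 2.24, 1.69, 2.42, 1.98 and 2.37 CPM at 2 d and 1.88, 1.57, 1.95 and 1.78 CPM in sham. The groups overlapped, with 4 of 5 samples above every sham sample at each time. Its log2 fold changes were 0.61 ± 0.23 at 7 d (SE, adjusted p = 0.158), 0.25 ± 0.23 at 2 d (adjusted p = 0.570) and 0.36 ± 0.22 at 7 d against 2 d (adjusted p = 0.360). In the deposited FPKM values the order of the group means differed, at 2.08 at 7 d, 1.68 at 2 d and 2.17 in sham, and the ratio of FPKM to CPM varied between samples from 0.624 to 1.81 for Nr1h3, against 0.646 to 0.666 for Clu. No direction is therefore given for Nr1h3.

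**Figure D3:**
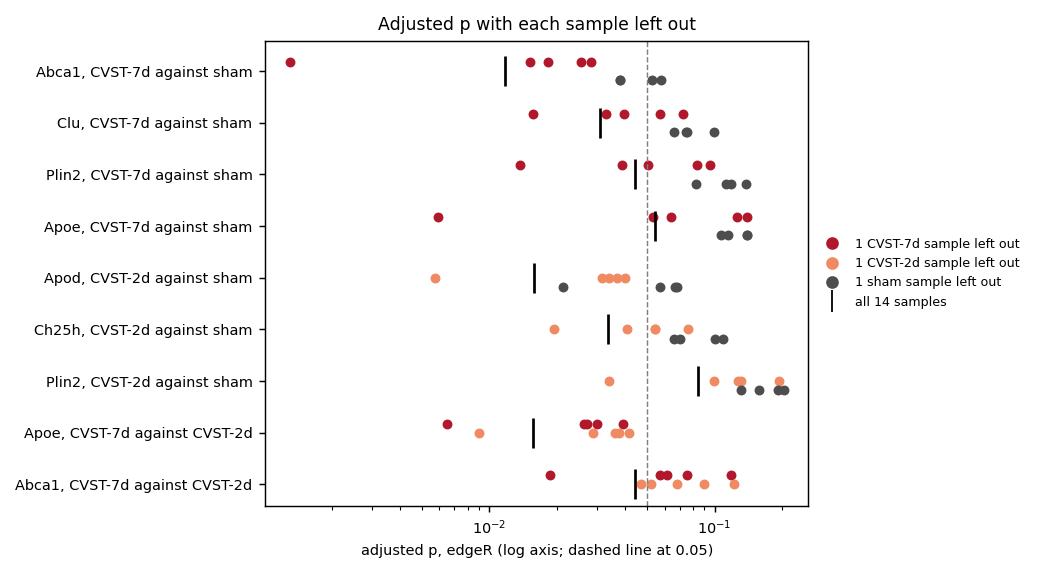
Adjusted p of edgeR's test (horizontal log axis) for the 7 called results and for Apoe at 7 d and Plin2 at 2 d against sham (vertical axis), with all 14 samples (black bar) and with 1 sample left out in turn (points, coloured by the group of that sample); the dashed line is at 0.05. The points for Apoe at 7 d against 2 d all lie below the line, at 0.00646 to 0.0416, and each of the other results has points on both sides.

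Counted by sample, the number of the 10 genes above the whole sham range was 9, 5, 8, 10 and 10 in 7 d samples 1 to 5 and 6, 5, 5, 6 and 6 in 2 d samples 1 to 5. Of all genes tested, 24.4%, 21.9%, 21.3%, 30.5% and 29.2% were above the range of the 4 sham samples in 7 d samples 1 to 5, and 22.2% to 31.7% in the 2 d samples. Apoe was the gene below the sham range, in 2 d samples 1 to 4. Thus 7 d samples 4 and 5 exceeded sham for every member, and 7 d sample 2 for Clu, Abca1, Plin2, Soat1 and Nr1h3. The number of genes whose groups did not overlap was 4 of 10 at 7 d against sham (Clu, Abca1, Plin2 and Soat1), 3 at 2 d against sham (Apod, Ch25h and Plin2) and 0 at 7 d against 2 d, all with the CVST samples higher. Of all genes tested, 5.80%, 5.65% and 2.28% were higher without overlap in these comparisons, and 3.61%, 2.98% and 1.54% were called higher.

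The spread within a group also differed. The coefficient of variation of CPM was larger at 7 d than in sham for 9 of the 10 genes, Ch25h being the other. It was 50.5% at 7 d, 28.3% at 2 d and 10.2% in sham for Apoe, 58.0%, 31.1% and 22.9% for Abca1, and 103%, 69.6% and 17.5% for Plin2, in the same order of groups. No test of the spread was made.

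**Figure D4:**
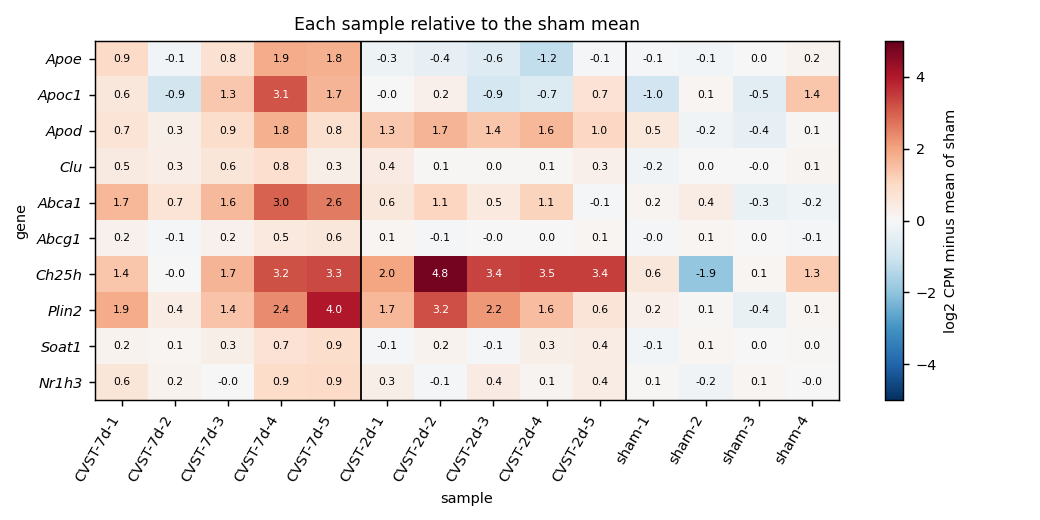
Log2 CPM of each gene (rows) in each sample (columns: 7 d, 2 d, sham) minus the mean of the 4 sham samples; colour and printed value show the difference. The 7 d samples 4 and 5 are above 0 for all 10 genes, and Apoe is below 0 in every 2 d sample.

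Across the 14 samples the 10 genes did not move as a block. Apoe had Pearson's r of 0.86 with Abcg1, 0.82 with Apoc1 and 0.71 with Abca1 in log2 CPM, but -0.03 with Apod and 0.04 with Ch25h. Apod had r of 0.85 with Ch25h, and Plin2 had r of 0.77 with Abca1 and 0.75 with Ch25h. After the group means were taken out, r was 0.80 between Apoe and Abcg1, 0.82 between Apoe and Apoc1, 0.55 between Apoe and Abca1 and 0.59 between Apod and Ch25h. It was 0.59 between Apoe and Ch25h and 0.39 between Apoe and Apod, so the values near 0 over all samples were not seen within groups. For Plin2 it was 0.77 with Abca1 and 0.64 with Ch25h. These are descriptions over 14 samples that share groups, and no p is given.

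On the length-scaled FPKM of the authors, levels can be compared between genes. Apoe led in every group, with a mean of 3738 FPKM at 7 d, 1140 at 2 d and 1554 in sham, followed by Clu at 643, 507 and 437 FPKM and Apod at 269, 365 and 136 FPKM in the same order of groups. The sample ranges of these 3 did not overlap with one another in any group. Below them at 7 d came Plin2 (18.9 FPKM), Abcg1 (16.0), Abca1 (14.3), Soat1 (10.6), Apoc1 (8.13), Nr1h3 (2.08) and Ch25h (1.95), where each overlapped with the next. At 2 d the order was Plin2 (13.7), Abcg1 (12.4), Soat1 (7.46), Abca1 (5.31), Ch25h (4.92), Apoc1 (1.85) and Nr1h3 (1.68), with a gap between Abcg1 and Soat1 alone. In sham Abcg1 (11.8 FPKM) stood clear of Soat1 (5.84), Plin2 (3.44), Abca1 (3.28), Apoc1 (2.38) and Nr1h3 (2.17), which ran into one another, and Ch25h (0.400) lay below Nr1h3 with no overlap. The ratio of FPKM to CPM varied between samples from 0.624 to 1.81 for Nr1h3, from 0.142 to 0.292 for Soat1 and from 0.593 to 1.10 for Plin2, so the places of these genes can differ between the deposited FPKM and CPM.

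The genes with the pattern most like 4 of the members were taken by Pearson's r of log2 CPM over the 14 samples, among 15293 other genes tested with a mean of at least 1 CPM. For Apoe they were Abca9 (0.95), Itm2b (0.95), Serpine2 (0.93), Cst3 (0.92) and Gm2a (0.91). For Abca1 they were Tcf12 (0.96), Naip5 (0.96), Mpeg1 (0.96), Cd300c2 (0.96) and Antxr1 (0.96). For Ch25h they were Cd14 (0.93), Tmod3 (0.90), Osmr (0.90), Gimap6 (0.89) and Tnfrsf1a (0.89), and for Plin2 they were Lcp1 (0.98), Gusb (0.98), Ccl6 (0.98), Hcls1 (0.98) and Esyt1 (0.98). The samples share libraries and groups, so these values rank genes and carry no p.

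Among other carriers and lipoprotein enzymes, Apoc2, the cofactor of lipoprotein lipase that is encoded near Apoe, was called higher at 7 d against sham (adjusted p = 0.0304). It had 119 counts at 7 d and 36 at 2 d against 0 in sham, and its 7 d samples ranged from 0 to 2.57 CPM. Its pooled CPM at 7 d was 33.8-fold a floor of 3 counts over the sham group, which is a lower bound against sham. That floor covers counting error, and an annotated read-through gene spans Apoc4 and Apoc2, so the reads of Apoc2 are uncertain. Pltp, a phospholipid transfer protein, was higher at 7 d than at 2 d (0.88 ± 0.19, SE, adjusted p = 0.0313). The list of lipoproteins and their remodelling had 10 genes tested, of which 2 were called higher at 7 d against sham, 1 at 2 d against sham and 2 at 7 d against 2 d, with medians of 0.92, 0.06 and 0.62. The rank of Apoc2 at the top of that list, and so its median, was the same with the bound in place of the fitted value.

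Among 18 lipoprotein and scavenger receptors tested, 6 were called higher at 7 d against sham (median 0.17), 1 at 2 d against sham (0.12) and 1 at 7 d against 2 d (0.11), and none lower. Msr1, a macrophage scavenger receptor that is also on the macrophage marker list below, rose by 5.40 ± 1.15 at 7 d (SE, adjusted p = 0.0196) and 6.16 ± 1.15 at 2 d (adjusted p = 0.0148). Trem2, a microglial receptor that binds lipids and Apoe, averaged 43.6 ± 27.9 CPM at 7 d, 17.7 ± 7.36 CPM at 2 d and 9.33 ± 1.22 CPM in sham (SD, n = 5, 5 and 4). It rose at 7 d against sham (2.23 ± 0.48, SE, adjusted p = 0.0202), with 0.93 at 2 d (adjusted p = 0.262) and 1.30 at 7 d against 2 d (adjusted p = 0.105). Stab1, a scavenger receptor of macrophages and endothelium (2.43 ± 0.59, adjusted p = 0.0336), and Mylip, a ubiquitin ligase and liver X receptor target (0.74 ± 0.19, adjusted p = 0.0422), rose at 7 d too. Lrp4 was higher at 7 d than at 2 d by 0.81 ± 0.11 (adjusted p = 0.00426). Lrp1, a large endocytic receptor for Apoe, did not pass, with 0.22 at 7 d (adjusted p = 0.364), 0.11 at 2 d (0.671) and 0.12 between them (0.618).

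Of 23 sterol transporters and genes of lysosomal sterol exit, 5 were called higher at 7 d against sham (median 0.12), 1 at 2 d against sham (0.02) and 3 at 7 d against 2 d (0.16). Besides Abca1, those called at 7 d against sham were the lysosomal acid lipase Lipa (1.21 ± 0.31, SE, adjusted p = 0.0435), Npc2 (1.01 ± 0.24, adjusted p = 0.0301), which hands cholesterol on within the lysosome, and Abca9 (0.87 ± 0.21, adjusted p = 0.0311). The fifth was Npc1 (0.56 ± 0.13, adjusted p = 0.0296), the partner of Npc2 in the lysosomal membrane, which was named after its value was seen. Tspo, an outer mitochondrial membrane protein, was called at 2 d (1.90 ± 0.46, adjusted p = 0.0352). Abca9 (1.10 ± 0.20, adjusted p = 0.0145) and Abca8a (1.00 ± 0.20, adjusted p = 0.0179) were higher at 7 d than at 2 d. Of 20 lipid droplet genes, Plin2 and Plin3 (0.67 ± 0.17, adjusted p = 0.0385) were called at 7 d against sham, and none at 2 d or between the times, with medians of 0.20, 0.14 and 0.04.

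Of the 21 liver X receptor and partner genes and their targets, Abca1 and Mylip were called at 7 d against sham, none at 2 d against sham, and Apoe, Abca1, Pltp and Smpdl3a (0.69 ± 0.17, SE, adjusted p = 0.048) at 7 d against 2 d, all higher, with medians of 0.33, -0.07 and 0.36. The receptors themselves did not pass: Nr1h2, liver X receptor beta, had -0.03, 0.19 and -0.22 (adjusted p 0.925, 0.371 and 0.279) and the partner Rxra had 0.08, -0.11 and 0.19 (0.743, 0.592 and 0.311). Of 9 oxysterol enzymes and receptors, Ch25h at 2 d was the one call, and the medians were 0.58, -0.01 and 0.20. Of 26 genes of sterol synthesis and its SREBP control none was called in any comparison, and the medians were -0.16, -0.04 and -0.21. Over the 109 listed genes that are not members, 12 were called higher at 7 d against sham, 2 at 2 d against sham and 5 at 7 d against 2 d, and none lower, and the shares were 11.0%, 1.83% and 4.59% beside the 3.61%, 2.98% and 1.54% of all genes called higher. None of those 14 calls against sham held with each of the 9 samples left out in turn, and of the 12 at 7 d none held without sham sample 2, 3 or 4, whereas Abca9 and Lrp4 held at 7 d against 2 d in all 10 such fits.

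The cortex samples hold several cell types, and in bulk RNA a change in the number of cells of a type and a change in RNA per cell cannot be told apart. Microglial markers (8 genes, none at 0) summed to 392 to 1037 CPM at 7 d, 275 to 604 CPM at 2 d and 297 to 342 CPM in sham, and 3 of 8 were called higher at 7 d and none at 2 d against sham. Markers of monocytes and macrophages (10 genes) summed to 36.8 to 2045 CPM at 7 d, 50.6 to 299 CPM at 2 d and 22.1 to 25.1 CPM in sham, with 6 called higher at 7 d and 2 at 2 d. In 7 d sample 2 and in sham samples 1 and 4, 1 of these 10 genes was at 0. Most of the mean sum at 7 d came from Lyz2, with 564 ± 704 CPM (SD) where the whole list averaged 679 CPM. At 2 d Lyz2 averaged 50.3 CPM where the list averaged 131 CPM. Lyz2 was named after its value was seen. Astrocyte markers (8 genes, none at 0) summed to 3648 to 5787 CPM at 7 d, 2647 to 3631 CPM at 2 d and 3275 to 4125 CPM in sham, with 1 called higher at each time against sham and 3 at 7 d against 2 d. Fibroblast and meningeal markers reached 2984 CPM in 7 d sample 5, against 177 to 383 CPM in the other 7 d samples, 196 to 258 CPM at 2 d and 117 to 171 CPM in sham. Of these 8 genes, the collagens Col1a1, Col1a2 and Col3a1 were called higher at 7 d against sham (adjusted p 0.0309, 0.0458 and 0.0345), and Aldh1a2 at 2 d against sham (0.0148). Endothelial markers (7 genes, none at 0) summed to 217 to 303 CPM at 7 d, 240 to 385 CPM at 2 d and 202 to 282 CPM in sham. Among them Pecam1 and Cdh5 were called higher at 2 d against sham (adjusted p 0.0179 and 0.0338) and none at 7 d. These fibroblast, meningeal and endothelial genes were named after their values were seen. Oligodendrocyte markers (8 genes, none at 0) summed to 3725 to 8219 CPM at 7 d, 2957 to 4733 CPM at 2 d and 3090 to 7792 CPM in sham. Their highest sums were in 7 d sample 4 and sham sample 1, which also had the highest Apod of their groups. None of these markers was called against sham at either time.

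Set beside the members over the 14 samples, Abca1 had r of 0.92 with the microglial list (0.86 within groups) and Plin2 had r of 0.98 with the macrophage list (0.96 within groups), both in log2 CPM. Abca1 also had r of 0.78 with the macrophage list (0.81 within groups) and 0.56 with oligodendrocytes (0.61). Plin2 had r of 0.75 with the microglial list (0.74 within groups). Ch25h had r of 0.88 with the 3 neutrophil markers tested and 0.77 with the macrophage list. Of the 7 neutrophil genes only these 3 passed the filter, and S100a8 and S100a9 averaged at most 1.39 and 1.82 CPM in any group. At 7 d against sham Csf3r was called higher (1.96, adjusted p = 0.0141), whereas S100a8 (0.13, adjusted p = 0.949) and S100a9 (-1.81, adjusted p = 0.347) were not called. These neutrophil genes were named after their values were seen. Apoe had r of 0.74 with the astrocyte list and 0.64 with the microglial list, which were 0.36 and 0.42 within groups. Its r within groups was higher with macrophages (0.63), mural cells (0.61) and neutrophil markers (0.60), against 0.39, 0.06 and -0.12 over all samples. Within groups Apoe also had 0.46 with fibroblasts and meninges and 0.45 with endothelium. Clu had 0.77 over all samples and 0.55 within groups with the astrocyte list. Clu also had r of 0.61 within groups with the choroid plexus list, against 0.04 over all samples. Plin2 further had r of 0.85 with the fibroblast and meningeal list (0.78 within groups), 0.70 with endothelium (0.72) and 0.51 with mural cells (0.79). Apod had r of 0.77 with the neutrophil markers (0.64 within groups), 0.72 with the macrophage list (0.49), 0.71 with endothelium (0.60) and 0.35 with oligodendrocytes (0.75). Soat1 had r of -0.82 with the neuronal list (-0.80 within groups), and the other members also had negative r with that list. The part of these cell types in the results of Abca1, Plin2, Ch25h, Apoe, Clu, Apod and Soat1 was not tested.

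**Figure D5:**
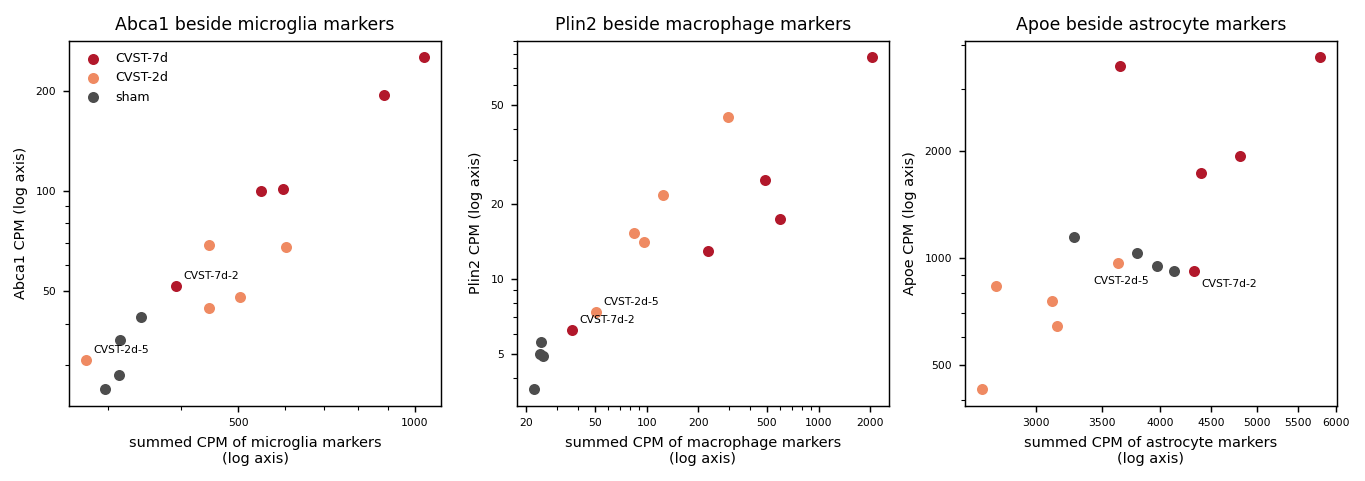
Level of Abca1, Plin2 and Apoe (vertical log axes, CPM) against the summed level of microglial, macrophage and astrocyte markers (horizontal log axes, CPM) in 7 d (dark red), 2 d (orange) and sham (grey) samples; the 2 CVST samples that lay beside sham are named. Abca1 and Plin2 are highest in the samples whose marker sums are highest, 1037 CPM of microglial and 2045 CPM of macrophage markers, and 7 d sample 5 has 3475 CPM of Apoe at 3648 CPM of astrocyte markers.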

How the data were processed

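The authors deposited a table of whole-number counts and one of FPKM (scaled to length and library size), for 14 mouse cortex samples. Per the submitters' processing notes, fastp, HISAT2 and DESeq2 1.16.1 were used with build mm39; for the counting tool, strand setting and annotation release: not given in the sources used here. Of 55894 entries, 535 without an Ensembl gene, with 0.203% to 0.278% of a sample's counts, were left out; 7589 of the rest, among them 4 members (Apod, Clu, Abca1 and Plin2), are joined to an assembled locus, so their counts can include newly assembled transcripts. Groups were taken from the labels.

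The 3 contrasts came from 1 edgeR 4.0.16 fit of group means to all samples (R 4.3.3; TMM factors; filterByExpr). Its quasi-likelihood test was 2-sided, p-values were adjusted by Benjamini-Hochberg over 16918 genes, and calls were made under an adjusted p of 0.05. The SE is the log2 fold change divided by the square root of the test's F value. Levels are CPM with TMM factors, and log2 CPM used a prior count of 2. Correlations within groups were taken after subtracting group means. Libraries had no stated molecular identifiers, so PCR copies are not independent and a floor covers counting error only. Alternatives were DESeq2 1.42.0 (its size factors and its Wald test), limma 3.58.1 on voom values with sample weights and on log2 FPKM, no filter, a replicate block, a fit of the 2 groups alone, each sample left out, and both CVST samples beside sham left out. The procedure was tested on simulated counts.

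The members and the gene lists were chosen with earlier results of these data known. Named genes are all 10 members, the 5 genes most like Apoe, Abca1, Ch25h and Plin2, up to 4 called genes per list, direction and comparison, and Nr1h2, Rxra, Lrp1, Trem2 and another gene that is not reported here. Replicate numbers were not taken as pairs: of 13 same-numbered pairs of samples across groups, 2 had a correlation of deviations over 0.1 (range -0.438 to 0.280). No mm39 annotation was used, so positions are given only for the printed GRCm38.p6 promoters.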

Additional observations from a re-analysis of the deposited data

Results flagged for a closer look

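Apod in 7 d sample 4, at 422 CPM, stood far from the other 7 d samples (150 to 227 CPM). Plin2 in 7 d sample 5, at 77.6 CPM, stood far from the other 7 d samples (6.21 to 24.8 CPM). These are the 2 sample values that lay beyond Dixon's limit in 30 groups of 4 or 5 samples (10 genes in 3 groups), and chance alone marks about 1 in 20 groups. The effect against sham differed between the times for Apoe, by 1.69 on the log2 scale (7 d minus 2 d), and for Abca1, by 1.43, in the test of 7 d against 2 d itself.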

How the results depend on the processing

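The number of members called at 7 d against sham was 3, and it became 5 with no filter on low counts, 1 when the 2 groups were fitted alone, 7 without both CVST samples beside sham, 6 with DESeq2's Wald test and 0 to 6 with 1 sample left out. At 2 d against sham it was 2, and 0 to 3 with 1 sample left out. At 7 d against 2 d it was 2, and 0 when the 2 groups were fitted alone, 1 on FPKM with either pseudocount (0.1 or 1) and 1 to 3 with 1 sample left out. With the replicate number as a block, which the labels do not tie to shared animals or days, 0, 1 and 0 were called in the same order of comparisons; 2 of 14 samples correlated best with their own number. The other alternatives stayed within 1.5 times the count. Of all genes, 611 were called higher at 7 d against sham, between 101 and 892 with 1 sample left out, 1042 with DESeq2 and 55 with the block. With no filter 617 were called higher, and 439 with the 2 groups fitted alone, so member counts did not follow these counts in every setting. Over all alternatives no called fold change of a member turned its sign; of the single values 468 kept their side of the threshold, 49 lost a call, 21 gained one and 10 without a call changed sign. These were Nr1h3 on FPKM, Abcg1 and Apoc1 at 2 d and Plin2 at 7 d against 2 d. Counts were low for Apoc1 (2 to 69), Ch25h (0 to 18 in sham) and Nr1h3 (26 to 68). The causes of these shifts, depth among them, were not tested.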
